A study of Mus musculus with 40 samples.

Results

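Genes that mark plasma cells were followed through 4 sorted B-lineage fractions of mouse bone marrow. They were Jchain, Mzb1, Prdm1, Sdc1, Fkbp11, Tnfrsf17 and Eaf2, chosen by name, though with earlier results of these data known. All 7 have a row among the 21958 gene rows of the count table. RNA was counted in 40 libraries of 100 sorted cells each, 5 libraries in each of 8 groups. Bone marrow of wild-type (WT) mice, or of mice homozygous for P198A, was given to lethally irradiated CD45.1 hosts, and marrow was taken 8 weeks later. The P198A allele, made by CRISPR/Cas9, changes a proline of the zinc transporter ZIP7 (gene Slc39a7). The titles write KO for these animals, which are called mutant here, although the allele is a missense change. WT chimeras are mice 1, 2, 3, 6 and 7, and mutant chimeras are mice 4, 5, 8, 9 and 10. Each mouse gave 1 library of each fraction, so a replicate is an animal. The labels name neither ages nor strains. Sorted cells carried the donor's CD45.2 and lacked CD45.1. FrB (pro-B) was B220+ CD43+ CD24+ BP1-, with no gate on IgM or IgD named. FrD (late pre-B) was B220+ CD43- IgM- IgD-, and FrE (immature B) was B220+ CD43- IgM+ IgD-. For FrC the labels describe no gate. None of the described gates used a plasma cell surface marker.

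Plasma cells are the end stage of the B lineage, specialised to secrete antibody, and long-lived ones reside in bone marrow. The repressor BLIMP-1 (Prdm1) switches off the B cell programme, and XBP1 expands the secretory pathway. The J chain joins IgM and IgA into polymers, and BCMA (Tnfrsf17) receives survival signals from APRIL and BAFF. Plasma cells lose much of their B220, while some of these genes are also used by B-cell precursors. The heavy and light chain constant genes, which form the bulk of plasma cell RNA, are not analysed here.

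Jchain, Fkbp11 and Tnfrsf17 were the 3 genes called in both later WT steps described further on, so the 250 bases before their RefSeq start sites are shown (GRCm38.p6, read 5′ to 3′ on the gene's strand). Capitals mark matches on either strand to GAAAG, a core shared by BLIMP-1 and IRF sites, or to ACGTG, the XBP1 core. The Jchain sequence lies at chr5:88527898-88528147 on the minus strand, that of Fkbp11 at chr15:98728199-98728448 on the minus strand, and that of Tnfrsf17 at chr16:11313559-11313808 on the plus strand. Fkbp11 has another RefSeq start, whose window at chr15:98727628-98727877 holds GAAAG 1 time and is not shown.
Jchain: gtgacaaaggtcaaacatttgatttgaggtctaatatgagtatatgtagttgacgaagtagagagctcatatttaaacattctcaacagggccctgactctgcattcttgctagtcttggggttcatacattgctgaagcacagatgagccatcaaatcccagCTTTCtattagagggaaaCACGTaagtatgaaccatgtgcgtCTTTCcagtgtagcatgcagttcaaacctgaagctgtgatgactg
Fkbp11: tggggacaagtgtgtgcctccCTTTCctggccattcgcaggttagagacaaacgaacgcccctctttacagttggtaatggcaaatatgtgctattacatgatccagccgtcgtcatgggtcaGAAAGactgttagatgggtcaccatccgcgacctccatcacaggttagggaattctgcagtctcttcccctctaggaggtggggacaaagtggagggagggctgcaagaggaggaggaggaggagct
Tnfrsf17: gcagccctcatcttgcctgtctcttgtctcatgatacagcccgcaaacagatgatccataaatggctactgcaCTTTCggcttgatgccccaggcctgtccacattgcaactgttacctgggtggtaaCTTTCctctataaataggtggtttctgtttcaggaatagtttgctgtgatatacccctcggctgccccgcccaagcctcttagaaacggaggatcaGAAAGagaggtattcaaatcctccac
GAAAG was found 2 times before Jchain, 2 times before Fkbp11 and 3 times before Tnfrsf17. It occurs in 51.5% of the 32817 promoter windows of this length, so these matches are common. ACGTG was found 1 time, before Jchain, and occurs in 16.6% of the windows. The octamer ATGCAAAT (1.6% of windows), the E-box CAGGTG (17.2%) and the ETS-IRF composite element (2.3%), which can overlap GAAAG, were not found in these 3 windows. A match is a string of letters and was not tested as a binding site.

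Library totals ran from 42111 to 43372070 counts, and all but the smallest held at least 1723215. A library is called low-complexity where over 15% of its detected genes had 1 to 9 counts, which held for 10 libraries. Among mutants these were mice 4, 8, 9 and 10 in FrB, mice 5, 9 and 10 in FrC, and mouse 9 in FrE. Among WT they were mouse 3 in FrD and mouse 7 in FrE. Mutant FrB therefore holds a single library that is not of low complexity. Levels are in CPM, the count of a gene scaled to the library's total over all genes, given by mouse in the order above. Differences are log2 fold changes ± SE from the quasi-likelihood test of edgeR, and a gene is called where its p, adjusted by Benjamini-Hochberg over all genes tested, is under 0.05. Fewer plasma cells in a gate and less RNA in each such cell cannot be told apart in libraries of 100 cells.

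Jchain (ENSMUSG00000067149, chr5:88519809-88527891, minus strand, GRCm38), the polymer-joining chain, had the widest range of the 7 genes. In WT FrB it was at 16749, 32636, 26279.9, 47967 and 14624 CPM. In WT FrC it was at 8.39, 15.6, 4.92, 8969 and 1766 CPM, so that mice 6 and 7 stood far above the other 3. The FrC libraries of mice 6 and 7 also held more ERCC spike-in counts, 18191 and 18909 against 7717, 6706 and 4476. Mice 6 and 7 have the highest numbers among WT as well. A link of the Jchain split with either was not tested. WT FrD was low in every library, at 14.3, 15.2, 12.9, 8.54 and 1.6 CPM. WT FrE spread over the whole range, at 7.9, 20529, 5310.5, 14174 and 1845 CPM, low in mouse 1 and high in the other 4.

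In mutant FrB Jchain was at 10532, 10034, 196, 879 and 2675 CPM, each below the lowest WT FrB library. Mutant FrC held 9.02, 366, 2.18, 274 and 6.2 CPM. In mutant FrD all libraries were at or below 11.4 CPM. Mutant FrE held 10.5, 15.5, 10.3, 1187 and 8.93 CPM, and the 1187 CPM of mouse 9 is 50 counts in the library of 42111 counts. By median the order was WT FrB, WT FrE, mutant FrB, WT FrC, WT FrD, mutant FrE, mutant FrC and mutant FrD, and the ranges of each pair of neighbours in this order overlapped.

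**Figure D1:**
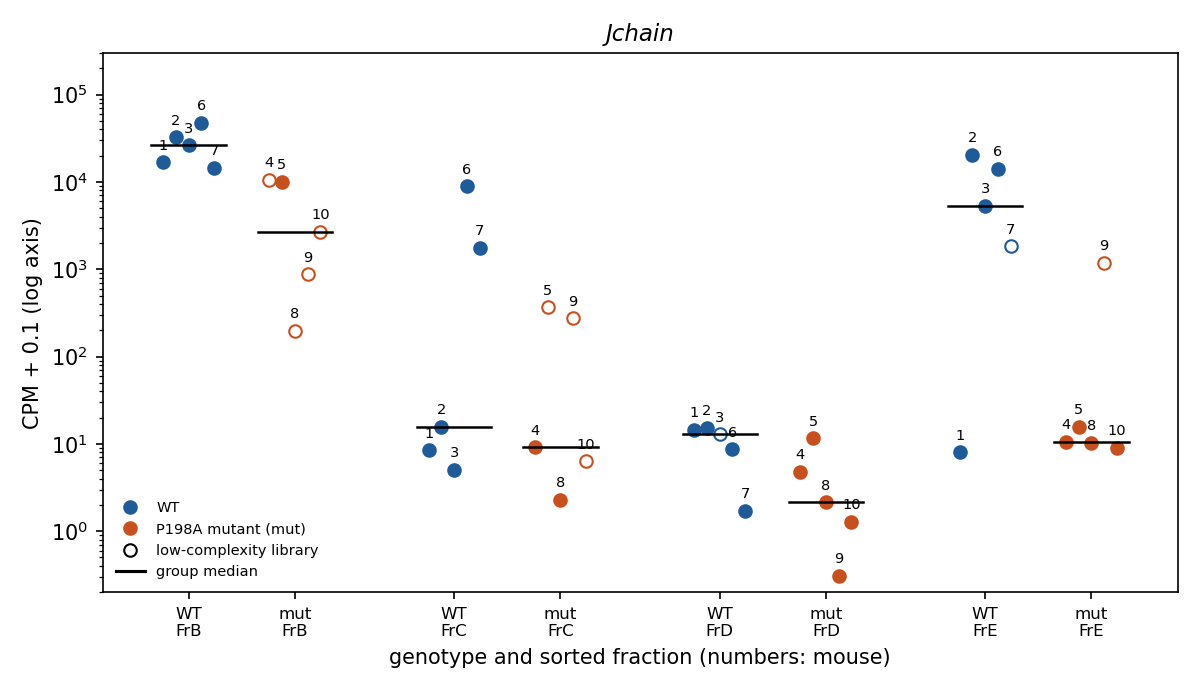
Jchain in each of the 40 libraries, as CPM + 0.1 on a log axis, by genotype and fraction. Numbers are mice, open points are low-complexity libraries and black lines are medians. WT FrB sits between 14624 and 47967 CPM, and WT FrC and WT FrE each split into high and low libraries.

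Tnfrsf17 (BCMA, ENSMUSG00000022496, chr16:11313812-11320074, plus strand) encodes a receptor for plasma cell survival signals. In WT FrB it was at 30.5, 78.1, 50.2, 158 and 37.7 CPM. In WT FrC it had 0, 1, 0, 395 and 43 counts, again with mice 6 and 7 above the rest. WT FrD had 2 counts over its 5 libraries. In WT FrE it was at 0.043, 23.6, 6.46, 37.6 and 0 CPM, so mice 2, 3 and 6 stood apart and mouse 7, high in Jchain, had no count. Mutant FrB held 28.9, 28.6, 0, 5.08 and 4.2 CPM, all below the lowest WT FrB library. Over 5 libraries each, mutant FrC had 1 count, mutant FrE had 2 and mutant FrD had 0, where 3 counts would be between 0.0692 and 0.207 CPM in a mutant FrD library.

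Fkbp11 (ENSMUSG00000003355, chr15:98724366-98728198, minus strand) encodes a peptidyl-prolyl isomerase of the secretory pathway. It was at 34, 141, 93.4, 79.8 and 62.4 CPM in WT FrB and between 3.99 and 12.9 CPM in WT FrC, with no overlap. WT FrD had 3 counts in all. In WT FrE it was at 4.25, 26.5, 61.1, 23.8 and 0.174 CPM. Mutant FrB held 37.2, 18.2, 1.61, 0.106 and 0 CPM, and overlapped WT FrB through mouse 4. In mutant FrC, FrD and FrE a single library of each stood above the rest, mouse 8 at 15.3 CPM in FrC and mouse 5 at 19.5 and 13.1 CPM in FrD and FrE.

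Prdm1 (ENSMUSG00000038151, chr10:44437177-44528501, minus strand), which encodes the plasma cell repressor BLIMP-1, was the lowest of the 7 per kilobase of exon in WT FrB. Its median there was 4.37 CPM per kilobase, against 10441 for Jchain, 1625 for Mzb1, 61.7 for Tnfrsf17, 29.5 for Fkbp11, 18.3 for Sdc1 and 15.4 for Eaf2. By library WT FrB held 3.12, 57.3, 17.5, 50 and 24.4 CPM. WT FrC reached 15.6 CPM in mouse 6 and at most 1.58 CPM elsewhere. WT FrD held 25.4, 0, 0, 6.02 and 15.7 CPM, so Prdm1 was present in 3 FrD libraries in which Jchain was low. WT FrE held 0, 25.5, 14.8, 40 and 6.8 CPM, with the lowest value in the mouse that also had the lowest Jchain. In the mutants it was at 31.3 CPM in FrB of mouse 4 and at most 2.88 CPM in the other FrB libraries. It was at 0 in 4 of 5 mutant FrC libraries and in 4 of 5 mutant FrE libraries.

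Mzb1 (ENSMUSG00000024353, chr18:35647267-35649367, minus strand), an endoplasmic reticulum chaperone of antibody assembly, was detected in all 40 libraries. GENCODE M21 places exons of another gene on the same strand over part of it, so some of its counts are uncertain. It was at 1521, 3023, 1974, 2532 and 1792 CPM in WT FrB, above all WT FrC libraries, which lay between 704.1 and 913 CPM. WT FrD lay between 823 and 1089.7 CPM, and WT FrE between 458 and 1762 CPM. Mutant FrB held 1343, 1162, 601, 429 and 1123 CPM, all below WT FrB. In mutant FrD and FrE the medians were 1045 and 1138 CPM, and their ranges overlapped those of WT.

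Sdc1 (ENSMUSG00000020592, chr12:8771323-8793715, plus strand) encodes syndecan-1 (CD138), the usual surface marker of plasma cells, which bone marrow B-cell precursors can carry as well. Its median lay between 27.6 and 78.3 CPM in the 4 WT groups, and it was at 36.9 CPM in FrC of WT mouse 1, where Jchain was at 8.39 CPM. In mutant FrB it was at 102, 45.5, 0.803, 0.741 and 6.26 CPM, spread over both sides of the WT range of 39.6 to 89.4 CPM. The transcription elongation factor gene Eaf2 (ENSMUSG00000022838, chr16:36792884-36875003, minus strand) was likewise present without Jchain. Its median in WT FrD was 46.4 CPM and in mutant FrE 120 CPM, close to the 122 CPM of WT FrE. In WT FrB it was at 46.8, 179, 67.1, 240 and 64.9 CPM, and in mutant FrB at 95.8, 19.7, 0, 40.9 and 0.413 CPM.

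**Figure D2:**
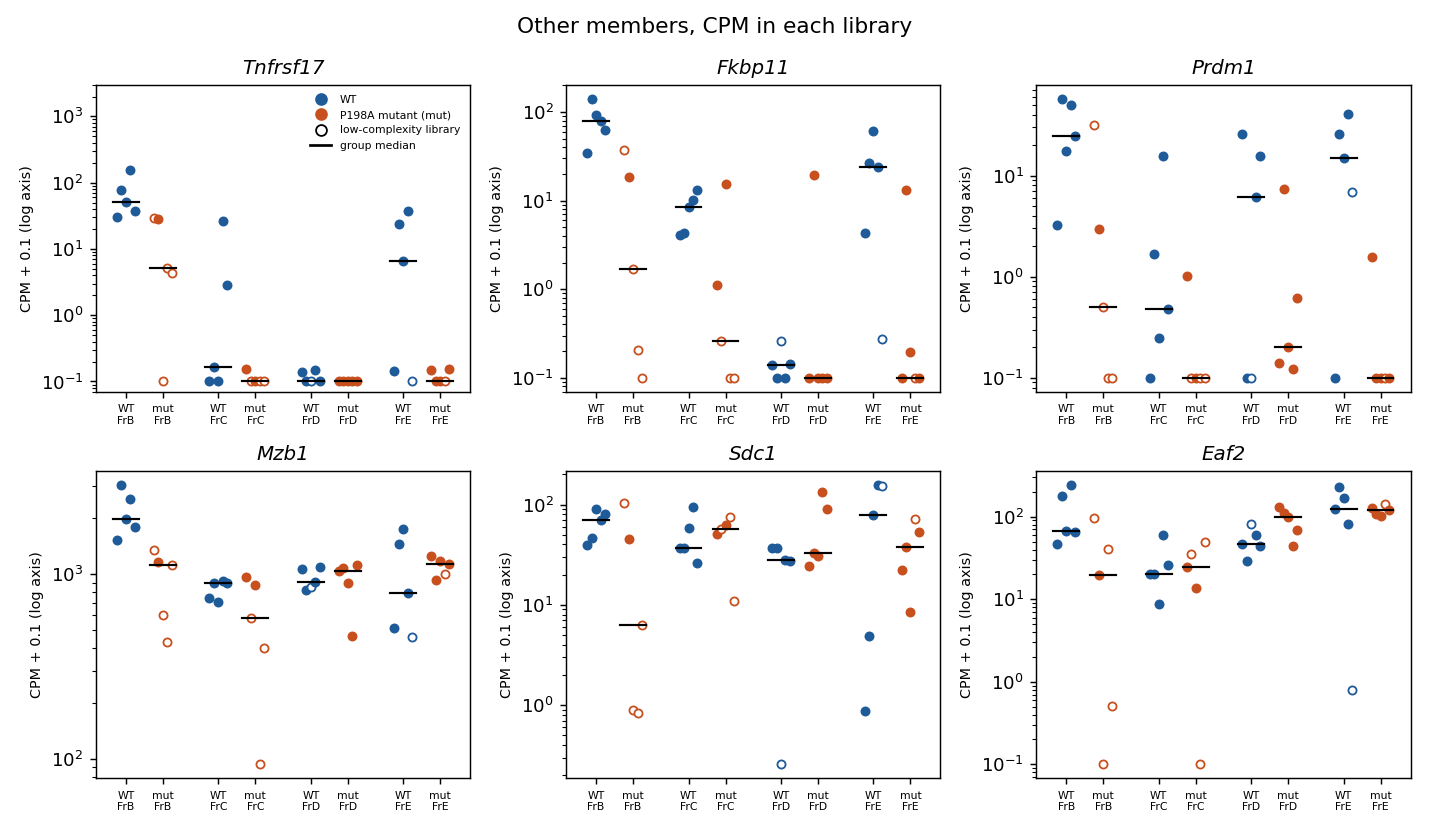
The other 6 genes in each library, as CPM + 0.1 on log axes, by genotype and fraction, with open points for low-complexity libraries and black lines for medians. Tnfrsf17, Fkbp11 and Prdm1 fall to or near 0 in many libraries outside FrB, while Mzb1 is at 93.4 CPM or more in all 40.

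Across the 40 libraries, log2(CPM + 1) of Jchain had a Pearson r of 0.88 with Tnfrsf17, 0.67 with Fkbp11, 0.62 with Prdm1, 0.36 with Mzb1, 0.18 with Sdc1 and 0.04 with Eaf2. These values describe libraries that differ in fraction, genotype and depth. In the 30 libraries not of low complexity they were 0.96, 0.83, 0.72, 0.66, 0.20 and 0.30, in the same order of genes. In the 16 libraries with at least 1000 Jchain counts, Tnfrsf17 had a median of 2.15 counts per 1000 Jchain counts, with 0 in 2 libraries and a highest value of 5.78. Fkbp11 had a median of 1.75 and Prdm1 of 1.14 on the same scale. For Mzb1 the ratio ran from 52.8 to 1580, for Sdc1 from 0.235 to 154 and for Eaf2 from 0.154 to 96. These 3 genes had counts in all 16 libraries.

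Of the genes with a mean of at least 10 CPM, the 10 most like Jchain were Prg2, Tnfrsf17, Cacna1s, Ly6a, Cd28, Tent5c, Tmem176a, Fkbp11, Hepacam2 and Plxnc1, with r from 0.94 to 0.63. Prg2 encodes the major basic protein of eosinophils, and Cacna1s a subunit of a voltage-gated calcium channel. Prg2 was at 71.8, 262, 251, 600.5 and 313 CPM in WT FrB. In WT FrC it was at 111 and 89.2 CPM in mice 6 and 7 and at most 1.49 CPM in the other 3, the split seen for Jchain. In WT FrE it was at 0.258 CPM in mouse 1 and between 86.7 and 176 CPM in the other 4. Cacna1s was at 44.7, 41.4, 72.8 and 51.4 CPM in those same 4 WT FrE libraries and at 0 in mouse 1.

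Plasmacytoid dendritic cells can carry B220 and some of these transcripts, so Siglech, a defining gene of that cell type, was read beside Jchain. It was at 0.265, 0.72 and 1.57 CPM in WT FrE of mice 3, 6 and 7, where Jchain was at 5310, 14174 and 1845 CPM. In mutant FrE of mouse 5 it was at 836 CPM, where Jchain was at 15.5 CPM. In WT FrB it was between 67.4 and 328 CPM, beside the highest Jchain levels. The summed level of the 12 listed genes of that cell type ran from 586 to 1228 CPM in WT FrB and from 698 to 1068 CPM in mutant FrB. In WT FrE this sum was 1079, 782, 716, 1341 and 1182 CPM by mouse. It was therefore not low in mice 3, 6 and 7, as Siglech was. Whether cells of that type were in these libraries was not tested.

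**Figure D3:**
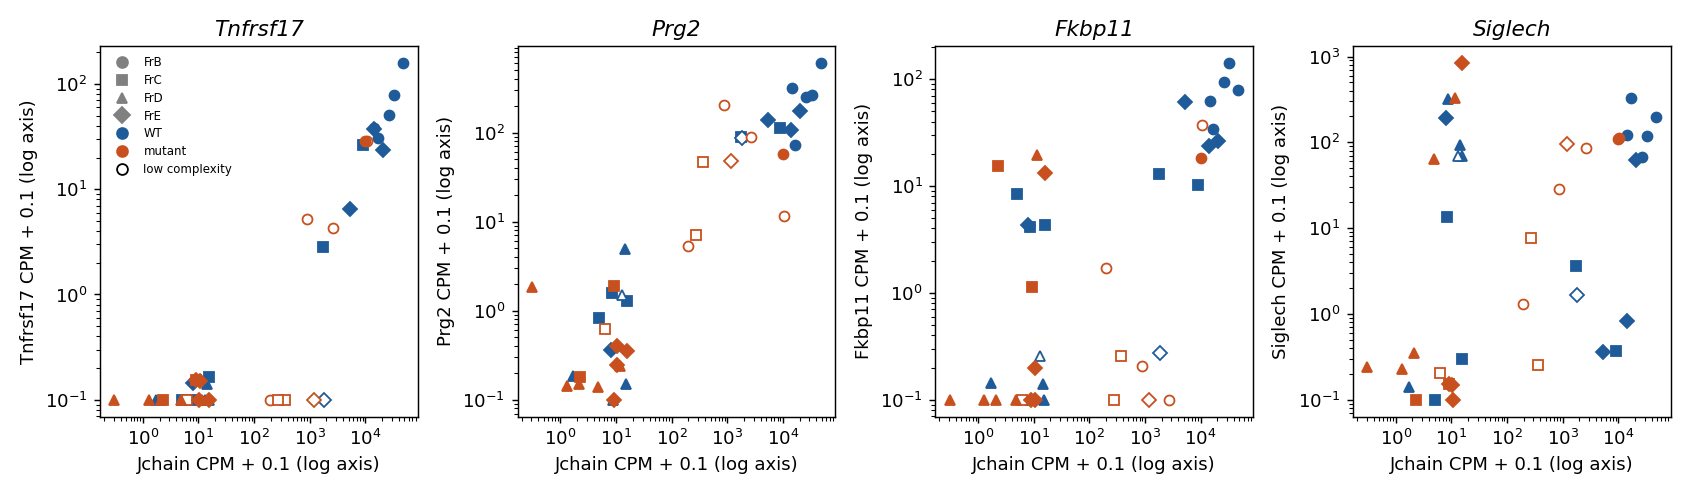
Tnfrsf17, Prg2, Fkbp11 and Siglech against Jchain in the 40 libraries, as CPM + 0.1 on log axes. Colours are genotypes, shapes are fractions and open points are low-complexity libraries. Tnfrsf17 (r = 0.88) and Prg2 (r = 0.94) follow Jchain, and Siglech is high in some libraries with little Jchain.

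Mutant and WT FrB were compared first. None of the 7 genes was called by edgeR, although all 7 log2 fold changes lay below 0 (Sdc1 not under spike-in scaling), with a median of -1.96 against 0.11 over all genes. At an unadjusted p under 0.05 there were 4 of 7, beside 23.9% of all genes. DESeq2 called 1 gene (Jchain), where it called 19.1% of all genes, and limma voom 4 (Jchain, Mzb1, Prdm1 and Fkbp11), where it called 14.2%. Of 10562 genes tested with edgeR in FrB, 7.37% were called. The difference was -2.42 ± 0.81 for Jchain (adjusted p = 0.0961) and -0.96 ± 0.30 for Mzb1 (adjusted p = 0.0634). For Tnfrsf17 it was -2.33 ± 0.97, for Fkbp11 -2.69 ± 1.25, for Prdm1 -1.96 ± 1.49 and for Eaf2 -1.76 ± 1.11, with adjusted p from 0.156 to 0.44. Sdc1 had the smallest difference, -0.93 ± 1.0 (adjusted p = 0.594), and its sign turned to 0.40 under scaling to the ERCC spike-in RNA. For Jchain, Mzb1 and Tnfrsf17 every mutant FrB library lay below every WT FrB library, as was so for 8.27% of the genes tested. Leaving out mutant mouse 4 brought the count of called genes to 1, Jchain.

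Of 30 other listed plasma cell genes 29 were tested in FrB, and 6 fell and none rose in the mutants, with a list median of -1.18. Without the low-complexity libraries, which leaves 1 mutant FrB library assumed to vary like the WT ones, the list median was -1.39. Xbp1, the secretory pathway regulator, fell by 2.61 ± 0.54 (adjusted p = 0.0123). The endoplasmic reticulum genes Creld2, Pdia4 and Derl3 fell too, Creld2 by 1.70 ± 0.38, Pdia4 by 2.21 ± 0.60 and Derl3 by 2.64 ± 0.71. The translocation gene Tram2 fell by 2.74 ± 0.70, and the chemokine receptor gene Cxcr3 was called lower (adjusted p = 0.00442), at 4.55 to 89.5 CPM in WT FrB and at 0 in 4 of 5 mutant FrB libraries. Of 11 listed B cell genes that BLIMP-1 is known to repress, 10 were tested. Their list median was -0.30, with 4 estimates above 0 and 6 below. Bach2 (1.92 ± 0.29) and Ebf1 (1.64 ± 0.35) rose and Ms4a1, which is also a mature B cell marker, fell by 3.24 ± 0.87. Markers of other cells differed in these libraries as well. Of 11 listed immature and mature B cell markers 10 have a row, and their summed level was 870 to 2566 CPM in mutant FrB and 7961 to 12597 CPM in WT FrB, without overlap. That of 13 granulocyte and monocyte markers was 2652 to 58654 CPM in mutant FrB and 126.5 to 11568 CPM in WT FrB. Their part in the result was not tested, nor was that of the 4 low-complexity libraries of mutant FrB.

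**Figure D4:**
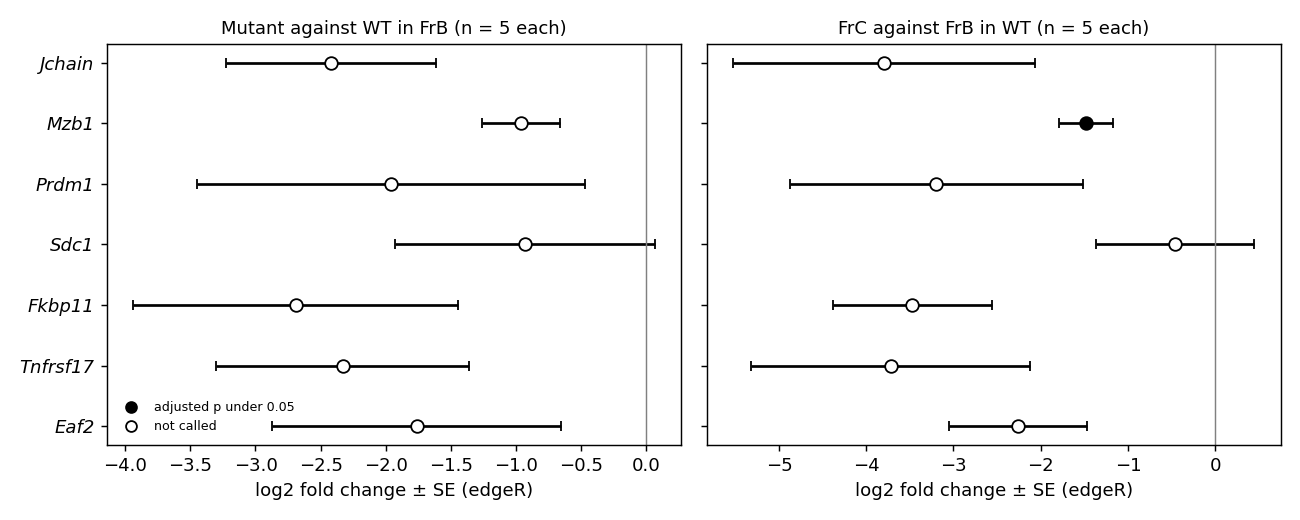
Log2 fold changes ± SE (edgeR) of the 7 genes for mutant against WT in FrB and for FrC against FrB in WT, 5 libraries a group. Filled points have an adjusted p under 0.05. All 14 estimates lie below 0, those of Sdc1 turning above 0 under spike-in scaling, and Mzb1 in WT FrC (-1.48) is the only one called.

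In FrE every mutant library lay below the high Jchain values of WT, which ran from 1845 to 20529 CPM. The highest mutant value, 1187 CPM in mouse 9, is 50 counts in the library of 42111 counts. edgeR called none of the 6 genes tested, and 2 had an unadjusted p under 0.05, beside 5.3% of all genes. By DESeq2 2 were called (Jchain and Tnfrsf17), where it called 1.15% of all genes. By limma voom 0 were called, where it called 0.135%, and edgeR called 0% of 9662 genes. The difference was -5.78 ± 2.30 for Jchain (adjusted p = 0.918), -5.54 ± 2.16 for Prdm1 (adjusted p = 0.884) and -2.91 ± 1.83 for Fkbp11 (adjusted p = 0.999). The groups overlapped for Jchain, because WT mouse 1 lay at 7.9 CPM. Tnfrsf17 did not pass the edgeR filter, because too few libraries held enough of its counts. It had 431, 122 and 522 counts in WT mice 2, 3 and 6 and at most 1 in any other FrE library. Its 2 counts in mutant FrE against 1076 in WT FrE give a 529-fold lower pooled level (95% interval 146 to 4376, counting error only), and 2 WT libraries had at most 1 count. Mzb1 and Eaf2 overlapped between the genotypes in FrE.

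In FrC and FrD none of the 5 genes tested in each was called by edgeR, DESeq2 or limma voom, nor did any reach an unadjusted p under 0.05. Over all genes edgeR called 0% in FrC and 0.00996% in FrD, DESeq2 11.9% and 2.51%, and limma voom 0% and 0.11%. Jchain overlapped between the genotypes in both. With counts summed per mouse over the 4 fractions, edgeR called none of the 7. At an unadjusted p under 0.05 there were 4, beside 16.6% of all genes. Called by DESeq2 were 2 (Jchain and Prdm1) and by limma voom 0. Of all genes edgeR called 0.631%, DESeq2 6.56% and limma voom 0.332%. In the sums per mouse a fraction counts by the depth of its library, such as 43372070 counts for FrD and 42111 for FrE of mutant mouse 9. The mix of fractions thus differs between mice, and its part in the differences was not tested. The summed differences were -3.20 ± 1.26 for Jchain, -3.43 ± 1.18 for Prdm1, -2.98 ± 1.19 for Tnfrsf17, -2.46 ± 1.44 for Fkbp11, -0.50 ± 0.22 for Mzb1 and -0.32 ± 0.28 for Eaf2, with adjusted p from 0.182 to 0.613. Sdc1 was at 0.09 ± 0.34 (adjusted p = 0.931), and its sign changed without WT mouse 1, WT mouse 2 or mutant mouse 9, over a range of -0.32 to 0.28 with 1 mouse left out. Among the other plasma cell genes 1 was called over all fractions, the disulfide isomerase gene Txndc5, which fell by 1.62 ± 0.18 (adjusted p = 0.00067).

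From FrB to FrC in WT all 7 estimates lay below 0 (Sdc1 not under spike-in scaling), and Mzb1 fell by 1.48 ± 0.31 (adjusted p = 0.045). This was 1 of 7 genes, where 0.166% of 11439 genes were called. DESeq2 called 2 of the 7 and 1.56% of all genes, and limma voom 3 of the 7 and 0.865%. The Mzb1 call ended with any 1 WT mouse left out, and with the mouse as a block none of the 7 was called. For Jchain, Mzb1, Fkbp11 and Tnfrsf17 every FrC library lay below every FrB library, as for 3.79% of genes. The other estimates were -3.80 ± 1.73 for Jchain, -3.72 ± 1.60 for Tnfrsf17, -3.47 ± 0.91 for Fkbp11, -3.20 ± 1.68 for Prdm1, -2.26 ± 0.79 for Eaf2 and -0.46 ± 0.91 for Sdc1, with adjusted p from 0.147 to 1. Sdc1 turned to 0.31 under spike-in scaling, which moved the median of all genes by 0.73. Of the other plasma cell genes 5 of 29 fell, with Xbp1 lower by a log2 value of -2.57 ± 0.44, the signal peptidase gene Sec11c by -1.34 ± 0.26, and Creld2, Ly6c2 and Edem1 also called. Without the low-complexity libraries, none of which is of WT FrB or FrC, 14 fell. All-gene calls then went from 0 higher and 19 lower to 13 higher and 161 lower. Immature and mature B cell markers summed to 2580 to 4716 CPM in WT FrC, below WT FrB, and their part in the result was not tested.

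From FrC to FrD in WT, Jchain fell by 7.40 ± 2.06 (adjusted p = 0.0451), and Fkbp11 and Tnfrsf17 were called lower. That is 3 of 7 genes, where 5.23% were called. Among the 7, DESeq2 called 3 (12.3% of all genes) and limma voom 1 (14.4%). Fkbp11 had 3 counts in FrD and 603 in FrC, a 251-fold lower pooled level (95% interval 85.3 to 1218). Tnfrsf17 had 2 counts against 439, of which 395 were of mouse 6. That is a 274-fold lower pooled level (95% interval 75.3 to 2266). Both intervals cover counting error only, not the spread between mice. The edgeR test, made on the libraries, gave an adjusted p of 0.000763 for Fkbp11 and 0.0337 for Tnfrsf17. The Jchain and Tnfrsf17 levels of FrC lay mostly in mice 6 and 7, and in the other 3 mice Jchain in FrC overlapped FrD. With any 1 WT mouse left out, or with the mouse as a block, only Fkbp11 was called. Mzb1 had a difference of 0.45 ± 0.30 (adjusted p = 0.446). Scaling to spike-in RNA moved the median of all genes by -2.49 in this step, and Mzb1 was then at -1.97 and called lower, above the median of -2.39. Of the other plasma cell genes 6 of 29 rose in this step, among them Cd38 (2.99 ± 0.33), Tram2 (2.52 ± 0.49) and the B cell coactivator gene Pou2af1 (1.07 ± 0.24).

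From FrD to FrE in WT, Jchain rose by 9.50 ± 2.24 (adjusted p = 0.0213), and Fkbp11 and Tnfrsf17 were called higher, 3 of 7 genes where 5.32% were called. Here DESeq2 called 3 (14.2% of all genes) and limma voom 2 (9.31%). Fkbp11 went from 3 to 2068 counts, an 821-fold higher pooled level (95% interval 281 to 3986). Tnfrsf17 went from 2 to 1076 counts, a 641-fold higher pooled level (95% interval 177 to 5300.3). These intervals cover counting error only. The edgeR test, made on the libraries, gave an adjusted p of 0.000133 for Fkbp11 and 0.0194 for Tnfrsf17. Jchain of WT mouse 1 did not follow, at 14.3 CPM in FrD and 7.9 CPM in FrE. Tnfrsf17 had 1 and 0 counts in FrE of WT mice 1 and 7, and Fkbp11 had 1 count in FrE of mouse 7. Without mouse 2 or without mouse 6, Fkbp11 alone was called, and with the mouse as a block Fkbp11 and Tnfrsf17 were called and Jchain was not. Prdm1, Mzb1, Sdc1 and Eaf2 were not called in this step. Of the other plasma cell genes Creld2 (1.97 ± 0.41), Txndc5 (2.37 ± 0.53), Ell2 (2.97 ± 0.74), Itm2c (3.44 ± 0.89) and Xbp1 rose, and Irf4 fell by 1.52 ± 0.29 and Cd38 by 1.23 ± 0.31. Without the low-complexity libraries 7 of them rose and 4 fell. Immature and mature B cell markers summed to 13177 to 38430.3 CPM in WT FrE and 1831 to 12871 CPM in WT FrD, and their part was not tested.

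In the mutants edgeR called none of the 6 genes tested in any of the 3 steps. In each step 1 had an unadjusted p under 0.05, beside 16%, 15.4% and 5.5% of all genes. It was Sdc1 from FrB to FrC, which lay higher in FrC (2.25 ± 1.05), and Jchain in both later steps. For Jchain the mutant FrC to FrD difference was -7.17 ± 2.20 (adjusted p = 0.0854). Its medians were 9.02 CPM in mutant FrC and 2.04 CPM in mutant FrD, and its pooled levels 41.9 and 2.86 CPM. The highest mutant FrC libraries, of mice 5 and 9 at 366 and 274 CPM, were of low complexity. With TMM factors the mutant FrC mean was 522.7 CPM, against 131.5 CPM without. The difference between the genotypes in the step from FrC to FrD was 0.17 ± 2.39 for Jchain, an SE too wide to show that the steps were alike. By edgeR 0% of genes were called from FrB to FrC, 2.97% from FrC to FrD and 0% from FrD to FrE. DESeq2 called 1 of the genes in each step, Tnfrsf17 and then Jchain in both later steps, where it called 3.05%, 6.1% and 0.844% of all genes. With limma voom 1 was called from FrB to FrC, Jchain, and 0 in the later steps, beside 0.0179%, 1.01% and 0.509% of all genes. Mzb1 had a mutant FrB to FrC difference of -0.55 ± 0.45 (adjusted p = 0.586). For Jchain the mutant FrD to FrE difference was 5.45 ± 2.06 (adjusted p = 0.566), and the only mutant FrE library above 15.5 CPM was that with 42111 counts. The steps were then compared between genotypes, and edgeR called none of the 7 in any step. In each step 1 had an unadjusted p under 0.05, beside 12.8%, 14% and 10.2% of all genes. By edgeR 0.524%, 2.98% and 0.153% of all genes were called in the 3 steps. The test of DESeq2 called 1, Fkbp11, from FrD to FrE and 0 in the other steps, where it called 1.93%, 4.07% and 3.45% of all genes. None was called by limma voom, which called 0%, 0.0161% and 0.379%. The genotype difference was 0.92 ± 0.49 for Mzb1 from FrB to FrC (adjusted p = 0.441) and -4.10 ± 2.50 for Jchain from FrD to FrE (adjusted p = 0.682), so neither step was shown to differ between the genotypes.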

How the data were processed

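RNA was measured in 40 Smart-seq2 libraries with ERCC spike-in RNA. The authors deposited 1 table of raw counts per gene. Per the submitters' processing notes, HISAT2 2.1.0, featureCounts 1.4.6 of Subread and DESeq2 were used with build mm10. Annotation release and strand setting: not given in the sources used here. Overlapping genes therefore cannot be told apart. Of 22050 rows, 92 are spike-in transcripts, and 21728 of 21958 gene identifiers matched a symbol. Coordinates are from GENCODE M21 (GRCm38) and promoters from RefSeq.

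CPM were computed on gene counts. Genes were tested, two-sided, with edgeR 4.0.16 in R 4.3.3 (robust quasi-likelihood fit, TMM factors, filterByExpr at min.count 10 and min.total.count 15). Genotypes were compared on the 10 libraries of a fraction or on sums per mouse, steps on the 20 libraries of a genotype, and differences between steps on all 40. The scripts were tested on simulated data. Alternatives used DESeq2 1.42.0 and limma 3.58.1. Fractions of 1 mouse are paired by the animal. Over all genes with a mean of at least 10 CPM, their deviations from the group means correlated by a median r of -0.02 to 0.09 over the 6 steps. This does not describe the 7 genes alone. The main tests left the pairing out, and the mouse as a block was an alternative. For a gene with 3 or fewer counts in a group, the pooled ratio is given with an exact 95% interval. Reads were amplified and carry no molecular identifiers, so intervals cover counting error only. No libraries were identical. The genes, the other lists and the tests were chosen with earlier results of these data known. Named genes are the 7 in every comparison, up to 6 called genes (otherwise 4) of lowest p from another list, and the 10 genes most correlated with Jchain. Lists of dividing, pro-B, T and NK, and erythroid genes were also summed.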

Additional observations from a re-analysis of the deposited data

Results flagged for a closer look

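Single libraries stood far from the other 4 of their group in 11 of the 50 gene and group combinations tested, by Dixon's criterion. For normally distributed values chance gives about 1 in 20. That rate does not apply to these skewed CPM, because a tested group with 4 libraries at 0 is always flagged. The count was therefore not compared with chance. In WT FrC, mouse 6 was the highest for Jchain (8969 CPM, next 1766), Prdm1 (15.6 CPM, next 1.58) and Tnfrsf17 (26.5 CPM, next 2.71). In FrE of mutant mouse 9, the library of 42111 counts, Jchain was at 1187 CPM, next 15.5. Prdm1 was highest in FrB of mutant mouse 4 (31.3 CPM, a low-complexity library), in FrD of mutant mouse 5 (7.31 CPM) and in FrE of mutant mouse 4 (1.48 CPM). Fkbp11 was highest in FrC of mutant mouse 8 (15.3 CPM) and in FrD and FrE of mutant mouse 5 (19.5 and 13.1 CPM). Sdc1 was lowest in FrD of WT mouse 3 (0.157 CPM, next 27), a low-complexity library.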

How the results depend on the processing

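Counts of called genes among the 7 moved as follows. For mutant against WT in FrB, 0 with edgeR became 1 with DESeq2 size factors, 1 with DESeq2, 4 with limma voom, 1 with no filter, 1 with the index set as a covariate and 0 to 1 with a mouse left out. In FrE 0 became 2 with DESeq2, and over all fractions 0 became 1 with spike-in scaling and 2 with DESeq2. From FrB to FrC in WT, 1 became 0 with spike-in scaling, 2 with DESeq2, 3 with limma voom, 3 without low-complexity libraries, 0 with the replicate block and 0 with any mouse left out. Without low-complexity libraries, all-gene calls in that step went from 0 higher and 19 lower to 13 higher and 161 lower. From FrC to FrD in WT, 3 became 5 with spike-in scaling, 1 with limma voom, 1 with the replicate block and 1 with any mouse left out. From FrD to FrE in WT, 3 became 1 without mouse 2 and 1 without mouse 6, with a range of 1 to 3 over mice left out, and was 2 with the replicate block. In mutants 0 became 1 from FrB to FrC with DESeq2 or limma voom, and 1 from FrC to FrD with DESeq2 size factors, DESeq2 or without low-complexity libraries, and 2 with spike-in scaling. From FrD to FrE in mutants it became 1 with DESeq2. The genotype difference in the step from FrC to FrD became 0 to 1 with a mouse left out, and that from FrD to FrE 1 with DESeq2. Under spike-in scaling Sdc1 turned to 0.40 for mutant against WT in FrB and to 0.31 for FrC against FrB in WT, and Mzb1 to -1.97 for FrD against FrC in WT. That scaling also took all-gene calls in this step from 337 higher and 261 lower to 40 higher and 6596 lower. The causes were not tested. The replicate block changed no other count of these genes by over 1.5 times. Sdc1 over all fractions ranged from -0.32 to 0.28 with a mouse left out. Planned CPM with TMM factors moved 5 of 56 group means beyond their SD, Jchain in mutant FrC from 131.5 to 522.7 CPM, Sdc1 there from 51.1 to 154 CPM, Mzb1 in WT FrC from 828 to 702.1 CPM, and Mzb1 and Eaf2 in mutant FrE from 1100.0 to 942 and from 120 to 102 CPM. CPM on totals without Jchain, chosen after seeing the data, moved no group mean beyond its SD. Depth limits genes at 0 to 3 counts, and mutant FrE of mouse 9 most.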

Other observations

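Other lists were summed in the same libraries. In WT FrB the summed level ran from 3523 to 6025 CPM for dividing cell genes, from 10157 to 14095 CPM for pro-B cell markers, from 42.6 to 311 CPM for T and NK cell markers and from 2276 to 23901 CPM for erythroid markers. In mutant FrB the same sums ran from 2639 to 5679, 7091 to 10305, 1.2 to 264 and 87.1 to 12355 CPM, so pro-B cell markers overlapped in a narrow range only. Granulocyte and monocyte markers reached 71366 CPM in a mutant FrE library that had no Jchain above 15.5 CPM.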
